A study of Mus musculus with 12 samples.

Results

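The difference between the sexes in the effect of Pou2f3 loss was examined across the genes of the mouse submandibular gland (SMG). For each gene the log2 fold change of knockout over wild type was estimated in females and in males, and the interaction is the female value minus the male value. A positive interaction means that the ratio of knockout to wild type was higher in females than in males, and a negative interaction the reverse. It does not compare the levels of knockout females and knockout males. The genes described are the 20513 protein-coding genes on the 19 autosomes, of 56065 genes in the count table. Of these, 17197 had a count in at least 1 library and 13685 passed the filter on low counts and were tested.

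The 4 groups were wild-type C57BL/6J mice of either sex and, again of either sex, mice of the C57BL/6J-Pou2f3em1Cbwi/J line (Pou2f3-/-, called knockout here). Each group held the whole SMGs of 3 mice aged 8 weeks from the Jackson Laboratory, with 1 library for each mouse. The knockout is not limited to the gland, so tuft cells (TCs) are missing in every organ that depends on Pou2f3 for them. The sources used here do not state whether wild-type and knockout mice were littermates, the hour of dissection or the stage of the estrous cycle, so such differences and the genotype cannot be told apart.

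Pou2f3 encodes the POU-domain transcription factor that specifies TCs, rare chemosensory epithelial cells with an apical tuft of microvilli. The mouse SMG makes saliva in acini, which secrete water, ions and glycoproteins, and modifies it in ducts, which exchange sodium, potassium, bicarbonate and protons. The gland is sexually dimorphic: androgens enlarge the granular convoluted ducts of males, which fill with kallikreins and growth factors such as EGF. A secretory epithelium of this kind depends on a large protein synthesis apparatus, from ribosomes through the endoplasmic reticulum (ER) and its chaperones to the coated vesicles of the Golgi.

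The libraries held 47031917 to 67881902 estimated counts. Markers of the gland were present in every library, with 4897 to 14861 counts for the acinar water channel Aqp5, 3040 to 8381 for the ductal keratin Krt8 and 104076 to 460634 for the duct kallikrein Klk1. Egf followed the labelled sex, with 17502 to 54931 counts in females and 2643325 to 4374639 in males. Of the markers of TCs, Pou2f3, Trpm5, Gnat3 and Il25 were near the limit of detection in whole glands, while Avil had 2 to 55 counts and Dclk1, which other cells also express, 477 to 1198. Pou2f3 itself had 0 to 2 counts in wild-type females, 0 in knockout females, 0 to 10 in wild-type males and 0 to 3 in knockout males, so these counts check the genotype labels only weakly. Trpm5 had 0 to 4 counts, and Gnat3 and Il25 had 0 in all 12 libraries, and by counting error alone a library with 0 counts could still hold up to 3, which is 0.0442 to 0.0638 CPM. In whole tissue, fewer cells of a type and less RNA per cell cannot be told apart.

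Of the 13685 genes tested, 3661 (26.8%) had an interaction with an adjusted p under 0.05 in edgeR's quasi-likelihood test, 1566 of them (11.4%) positive and 2095 (15.3%) negative. The median interaction over all genes tested was −0.09, and the medians of the log2 fold changes were −0.08 for females and −0.03 for males. In the same fit 5300 genes (38.7%) passed the test in females and 41 (0.3%) in males. The libraries of knockout and wild type did not overlap for 6813 genes (49.8%) in females, for 2046 (15.0%) in males and for 839 (6.13%) in both sexes. With 3 against 3 libraries, a share of 0.1 of genes without any difference would separate in this way within 1 sex. The called genes had a median absolute effect of 0.67 for females and 0.14 for males on the log2 scale, and the female effect was the larger in 3355 of the 3661. Across all genes tested the median absolute effect was 0.38 for females and 0.15 for males. The female effect was the larger in 9871 of these 13685 genes.

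The called genes were sorted by their unadjusted p in each sex. A gene was called opposite when p was under 0.05 in both sexes with opposite signs, female only or male only when p was under 0.05 in that sex alone, and same direction when it was under 0.05 in both with the same sign. The female-only class held 3075 genes (22.5% of those tested), of which 1284 were higher and 1791 lower in knockout females. The opposite class held 312 genes (2.28%), with 194 higher in knockout females and lower in knockout males and 118 the reverse. The male-only class held 215 genes (1.57%), with 136 higher and 79 lower in knockout males. The same-direction class held 52 genes (0.38%), and 7 called genes reached p under 0.05 in neither sex. A p that misses the threshold does not show the absence of an effect, so a second form, called strict here, was also counted. It required an adjusted p under 0.05 in the changing sex. The 95% interval of the other sex had to lie within 0.5 of 0 on the log2 scale. The strict form set no limit on the p of that other sex, so it is no subset of the female-only class. Atf4, of the opposite class, met it for females. The strict form held 2201 genes for females, 663 up and 1538 down, and 1 gene for males.

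**Figure D1:**
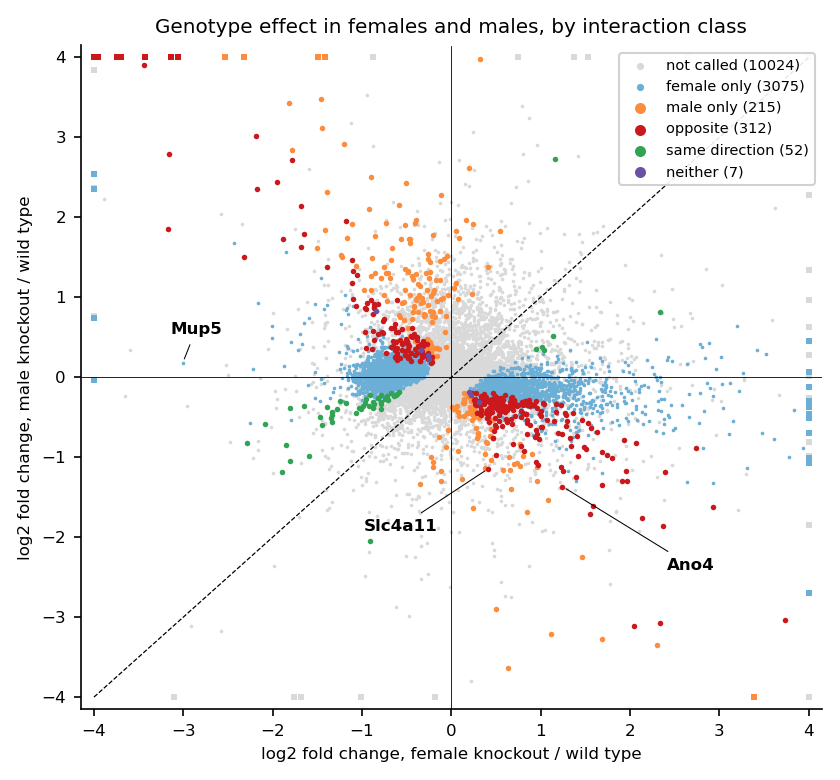
Log2 fold change of knockout over wild type in males (vertical) against females (horizontal) for the 13685 genes tested, 1 point for each gene, coloured by class. The dashed line marks equal effects, squares are 64 genes beyond an axis limit of 4, and most coloured points lie along the horizontal axis, where the female-only class (3075 genes) sits.

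The number of calls depended on single libraries. With 1 library left out at a time it ran from 1976 without male wild-type 1 to 4417 without female wild-type 1. It was 2280 without male wild-type 3 and 2432 without male knockout 3. The positive calls numbered 883 without female knockout 1, 926 without male wild-type 1, 961 without female wild-type 3, 965 without female knockout 3 and 1036 without male knockout 3. The negative calls numbered 1050 without male wild-type 1, 1229 without male wild-type 3 and 1396 without male knockout 3. The female-only class held 1749 genes without male wild-type 1 and 2030 without male wild-type 3. The opposite class ran from 132 genes without male knockout 2 to 723 without male wild-type 2. It was 636 without male knockout 1, 138 without male wild-type 1, 144 without male knockout 3 and 158 without male wild-type 3. The share of positive calls was 42.8%, and 53.7% with upper-quartile scaling, which moved the median interaction to −0.01. In each of 8 other settings of scaling, filter or tool, between 2678 and 3592 of the 3661 genes were called again, each with the same sign.

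Mup5, Slc4a11 and Ano4 show 2 forms that the interaction took, a change in 1 sex and changes in opposite directions. The promoters of the opposite pair are shown because their windows differ in CpG content. Each window runs from 250 bases before to 50 after the annotated start of the canonical transcript, on the minus strand of chr2:130539395-130539694 for Slc4a11 and of chr10:89093686-89093985 for Ano4 (GRCm39). The Slc4a11 window holds 30 CpG dinucleotides and the Ano4 window 3, against a median of 16 in the promoters of all genes tested. Capitals mark the 2 matches to the CCAAT box of Ano4, 1 on either strand.
Slc4a11: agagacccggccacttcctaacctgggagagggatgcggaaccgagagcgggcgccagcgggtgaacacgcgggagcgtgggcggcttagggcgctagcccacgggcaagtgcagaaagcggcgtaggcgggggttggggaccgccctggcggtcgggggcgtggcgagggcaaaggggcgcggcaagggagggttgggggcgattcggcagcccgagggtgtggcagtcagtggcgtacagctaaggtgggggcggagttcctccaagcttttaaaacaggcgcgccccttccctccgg
Ano4: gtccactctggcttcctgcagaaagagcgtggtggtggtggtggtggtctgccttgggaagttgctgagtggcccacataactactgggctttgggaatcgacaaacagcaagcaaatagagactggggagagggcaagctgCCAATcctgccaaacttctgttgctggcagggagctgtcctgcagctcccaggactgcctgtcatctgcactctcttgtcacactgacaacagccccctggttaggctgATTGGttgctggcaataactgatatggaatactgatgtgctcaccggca

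Mup5 (7 exons, minus strand of chr4:61749556-61753470) is a major urinary protein, a lipocalin of the family that carries small volatile ligands. It stood at 37927, 31368 and 39955 normalized counts in wild-type females. Knockout females read 4828, 5039 and 3729, wild-type males 3054, 5330 and 2268 and knockout males 4287, 4348 and 3442. Only the wild-type females were high, and the other 3 groups overlapped. The females differed by a log2 fold change of −3.01 (adjusted p = 5.8e-05) and the males by 0.18, and the interaction was −3.19 ± 0.36 (SE, 3 mice a group, adjusted p = 0.0025, edgeR's quasi-likelihood test).

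Slc4a11 (21 exons, chr2:130526028-130539898), a member of the bicarbonate transporter family that conducts protons and water, went opposite ways. It stood at 660, 603 and 595 normalized counts in wild-type and 929, 787 and 762 in knockout females, and at 1200, 1509 and 1396 in wild-type and 753, 590 and 517 in knockout males. Every knockout female lay above every wild-type female, and every knockout male below every wild-type male. It rose by a log2 fold change of 0.41 in females and fell by 1.14 in males (adjusted p = 0.035 and 0.0038), and the interaction was 1.56 ± 0.20 (SE, adjusted p = 0.0027, edgeR). It was the only gene of the opposite class with an adjusted p under 0.05 in both sexes.

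Ano4 (28 exons, chr10:88784789-89181063), an anoctamin of the family of calcium-activated channels and lipid scramblases, moved the same way as Slc4a11. It stood at 65.2, 117 and 73.8 normalized counts in wild-type and 215, 188 and 203 in knockout females, and at 70.7, 47.6 and 102 in wild-type and 37.3, 29.1 and 19.1 in knockout males. The groups did not overlap in either sex. The females differed by a log2 fold change of 1.24 (adjusted p = 0.0084) and the males by −1.37 (adjusted p = 0.12), and the interaction was 2.61 ± 0.46 (SE, adjusted p = 0.0043, edgeR). The calls of all 3 genes held in every alternative, including each left-out library.

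**Figure D2:**
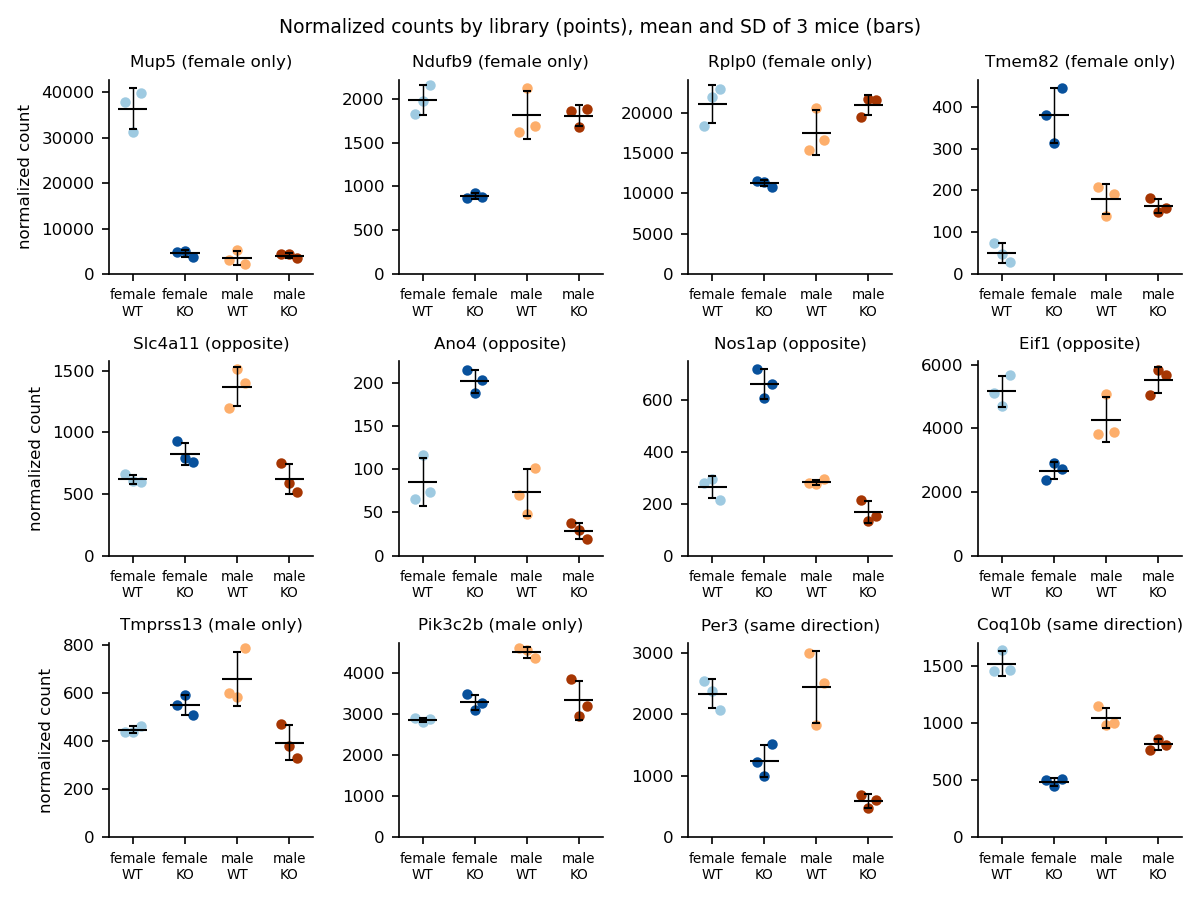
Normalized counts of 12 genes named in the text, 1 point for each library, with the mean (line) and SD of 3 mice (bars), on axes that start at 0 and differ between panels. In the female-only row the female groups separate and the male groups overlap, and Slc4a11, Ano4 and Nos1ap are higher in knockout females and lower in knockout males.

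Among the genes with an interaction above 1 in size, Atosa had the smallest p of the positive ones. It stood at 975, 1002 and 973 normalized counts in wild-type and 1784, 1628 and 1756 in knockout females, and at 2627, 2707 and 2530 in wild-type and 2149, 1896 and 2137 in knockout males, so that the sexes separated in opposite directions. Its interaction was 1.16 ± 0.11 (SE, adjusted p = 0.0013, edgeR). Nos1ap, an adaptor of neuronal nitric oxide synthase, rose from 279, 296 and 215 to 720, 606 and 662 in females and stood at 280, 276 and 294 in wild-type and 215, 134 and 153 in knockout males. Its log2 fold changes were 1.33 and −0.76. Ulk3, a kinase of the autophagy-initiating family, had log2 fold changes of 0.99 and −0.46 and, like Atosa, Nos1ap and Slc4a11, had separated groups in both sexes.

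The others with the smallest p were female-only genes. Tmem82, a transmembrane protein, rose from 74.2, 46.7 and 28.6 normalized counts to 380, 314 and 444 in females and stood at 207, 138 and 190 in wild-type and 181, 149 and 157 in knockout males. Wild-type females were thus the low group and knockout females the high one, with both male groups between. Ybx2, an RNA-binding Y-box protein known from germ cells, and Kifc2, a minus-end kinesin, had the same order of groups. Their interactions were 2.41 ± 0.30 and 2.42 ± 0.30 (SE), and that of Tmem82 was 3.04 ± 0.38. Ciz1, a nuclear matrix protein of DNA replication, had an interaction of 1.47 ± 0.19.

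Of the negative genes, Coq10b, a coenzyme Q binding protein of mitochondria, had the smallest p. It fell from 1456, 1644 and 1468 normalized counts to 500, 447 and 506 in females and stood at 1148, 981 and 1003 in wild-type and 768, 862 and 810 in knockout males. Both sexes moved down, the females further, with log2 fold changes of −1.65 and −0.36. Usp2, a deubiquitinase under clock control, fell in both sexes as well, by 2.28 in females and 0.82 in males (adjusted p = 2e-06 and 0.023, edgeR). Its interaction was −1.47 ± 0.19 (SE).

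The rest of this set fell in females and did not pass the test in males. Odc1, the rate-limiting enzyme of polyamine synthesis, went from 2180, 1936 and 2001 normalized counts to 851, 803 and 924 in females and stood at 1424, 1733 and 1448 in wild-type and 1253, 1467 and 1524 in knockout males. Its male groups overlapped, with a log2 fold change of −0.12. Ndufb9, a subunit of respiratory complex I, had log2 fold changes of −1.16 and −0.01, and Tlcd4 of −1.07 and 0.11. Gm10053, a predicted gene of 1 exon, had an interaction of −1.06 ± 0.14 (SE). For the tyrosine phosphatase symbol Ptp4a1 the interaction of −1.04 ± 0.14 belongs to a gene model of 108 bases and 1 exon that lies inside the longer gene of that symbol. The longer gene, of 6 exons, was not called, and both values are uncertain because the counting could split reads between them.

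Of 80 cytosolic ribosomal protein genes tested, 68 were called (85.0%), 67 negative and 1 positive. Of all genes tested 26.8% were called, 15.3% negative and 11.4% positive, and each list below is set against the same shares. The ribosomal medians on the log2 scale were −0.67 for females and 0.09 for males. The ribosomal median interaction was −0.75, against −0.09 over all genes. Rplp0, of the ribosomal stalk, stood at 18373, 21965 and 22957 normalized counts in wild-type and 11559, 11457 and 10848 in knockout females, and at 15361, 20633 and 16652 in wild-type and 19493, 21780 and 21552 in knockout males. The female groups lay far apart and the male groups overlapped, with an interaction of −1.16 ± 0.19 (SE, adjusted p = 0.0038, edgeR). Rps13 and Rps29, of the small subunit, had interactions of −1.06 and −1.08. The positive member was Rps27, at 733, 41.1 and 1126 normalized counts in wild-type males and between 41.1 and 1126 over all libraries, a value that is uncertain because reads of near-identical copies can be split between them. The ribosomal calls numbered 42 without male wild-type 1 and 48 without male wild-type 3, and the median lay between −0.94 and −0.68 over the left-out libraries.

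Of 64 translation factors, 42 were called, 38 of them negative, with medians of −0.61 in females and −0.03 in males. Eif1, which guides start codon choice, was opposite: it fell from 5121, 4702 and 5669 normalized counts to 2380, 2905 and 2733 in females and stood at 3820, 5083 and 3896 in wild-type and 5051, 5846 and 5666 in knockout males. The male groups overlapped at 1 value, with log2 fold changes of −0.95 in females and 0.37 in males and an interaction of −1.32 ± 0.18 (SE, edgeR). Eef1g, of the elongation factor 1 complex, had log2 fold changes of −0.97 and 0.04. All 11 calls among 23 aminoacyl-tRNA synthetases, which charge tRNAs, were negative, and Gars1 had an interaction of −0.86 ± 0.12. Without male wild-type 1, 24 translation factors were called.

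The secretory pathway followed, step by step. Of 26 genes of the signal recognition particle and translocon, which bring nascent chains into the ER, 18 were called, 17 negative, with medians of −0.77 in females and −0.08 in males. Spcs2, of the signal peptidase, fell from 4939, 5707 and 7007 to 2370, 2734 and 2806 normalized counts in females and stood at 3285, 4665 and 3610 in wild-type and 3936, 3636 and 3763 in knockout males. In N-glycosylation 14 of 26 genes were called, all negative, among them Ostc and Stt3b of the oligosaccharyltransferase, at −1.15 ± 0.21 and −0.75 ± 0.17 (interaction, SE). Alg11 of that list (interaction −0.97) missed the threshold under the authors' normalization, at −0.98. Without male wild-type 1, 13 genes of the translocon list and 7 of the glycosylation list were called.

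Of 26 ER chaperones and folding enzymes, 15 were called, all negative, 3 of them opposite, and the medians were −0.78 in females and 0.12 in males. Manf, a secreted ER stress protein, stood at 2307, 2557 and 2996 normalized counts in wild-type and 1128, 1044 and 1322 in knockout females, and at 3503, 5573 and 3515 in wild-type and 4220, 5797 and 6497 in knockout males. It fell in females, while its male groups overlapped, and the log2 fold changes were −1.17 and 0.39. Dnajc3, a co-chaperone of BiP, had an interaction of −1.18 ± 0.24 (SE) and the oxidase Ero1b one of −1.08 ± 0.23. The count of calls in this list was among the less stable: 5 without male wild-type 1, 8 without male knockout 3 or male wild-type 3, 23 without male wild-type 2, and 4 without female wild-type 3 and male knockout 2 together. The median interaction, −0.84, lay between −1.15 and −0.71 with single libraries left out.

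Among genes of ER-associated degradation and the unfolded protein response, 12 of 22 were called, all negative, with 7 left without male wild-type 1 or 3. Herpud1, of the ER degradation complex, fell from 14037, 16388 and 17133 to 6663, 6625 and 7806 normalized counts in females and stood at 11702, 13671 and 10450 in wild-type and 9101, 15760 and 19413 in knockout males. The male knockouts spread to both sides of the male wild types. Of 43 genes of COPI and COPII coats and Golgi traffic 28 were called, 27 negative, with medians of −0.71 and −0.04. The exception was Sec31b, a COPII coat subunit, which rose from 64.1, 33.7 and 43.7 to 209, 147 and 188 normalized counts in females and stood at 151, 103 and 124 in wild-type and 80.2, 60 and 79.9 in knockout males. Its groups separated in both sexes, opposite to its list, with an interaction of 2.71 ± 0.37 (SE, edgeR). Copz1, of COPI, had an interaction of −0.95 ± 0.12.

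Of the 118 opposite genes lower in knockout females, the lipid and fat-cell list held the most, with 8 of its 18 tested members. The heat shock, ER chaperone and macrophage lists held 3 each. The ATF4, immediate early and proteasome lists held 2 each, of 20, 22 and 46 tested. Hspa8, the constitutive HSP70 chaperone, fell from 18484, 16241 and 19738 normalized counts to 9086, 8667 and 10229 in females and stood at 15738, 17449 and 15654 in wild-type and 16013, 26075 and 30059 in knockout males. Male knockouts 2 and 3 were high and male knockout 1 lay within the wild types. Of the male libraries, knockouts 2 and 3 were also the highest in the summed levels of the fat-cell and macrophage lists. The log2 fold changes of Hspa8 were −0.96 and 0.56, with an interaction of −1.52 ± 0.27 (SE, adjusted p = 0.0044, edgeR). Of 17 heat shock and cold-inducible genes 10 were called (58.8%, against 26.8% of all genes tested), 9 of them negative. The opposite ones numbered 3, and 2.28% of all genes tested were opposite. The positive one was the cold-inducible RNA-binding protein Cirbp. It stood at 309, 367 and 348 in wild-type and 538, 589 and 470 in knockout females. In males it stood at 633, 532 and 632 in wild type and 671, 355 and 334 in knockouts. Hsp90aa1 had an interaction of −0.88 and missed the threshold under the authors' normalization, at −0.54.

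The amino acid stress response had 1 sign throughout its calls. All 9 called of 20 ATF4 response genes were negative, with medians of −0.51 in females and 0.10 in males. Atf4, the transcription factor itself, fell from 4067, 4292 and 4004 to 2981, 2818 and 3042 normalized counts in females and stood at 3145, 3653 and 2833 in wild-type and 3464, 4042 and 3845 in knockout males, with log2 fold changes of −0.48 and 0.24. Asns, asparagine synthetase, fell in females (−1.05) with −0.17 in males, and the pseudokinase Trib3 was opposite (−0.88 and 0.58). The list gave 4 calls without male knockout 3 or male wild-type 3, and 6 without male wild-type 1 or male knockout 2. All 34 calls among 46 proteasome genes were negative, with medians of −0.59 and 0.01. Psmd1 and Psmd2, of the regulatory particle base, had interactions of −0.70 ± 0.12 and −0.86 ± 0.15 (SE). Without male wild-type 1 or 3, 23 proteasome genes were called.

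Of the nuclear-encoded subunits of the respiratory chain, which carries electrons to oxygen in mitochondria, 40 of 77 were called, all negative, with medians of −0.63 in females and −0.03 in males. Ndufb9 fell from 1826, 1983 and 2159 to 866, 929 and 874 normalized counts in females and stood at 1627, 2131 and 1696 in wild-type and 1868, 1675 and 1888 in knockout males. Cox7a2, of complex IV, had log2 fold changes of −1.09 and 0.07, and Sdhd, of complex II, of −0.84 and 0.04. Of 78 mitochondrial ribosomal protein genes 32 were called, 30 negative, and Mrpl53 had the smallest p (interaction −1.40 ± 0.26, SE). The respiratory chain had 18 calls without male wild-type 1, 23 without male wild-type 3 and 66 without female wild-type 1, and the mitochondrial ribosome 15 and 16 without male wild-type 1 and 3 and 19 without male knockout 2 or 3.

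Cholesterol synthesis belonged to the same side. Of 21 genes 13 were called, all negative, with medians of −0.66 in females and 0.12 in males. Fdft1, squalene synthase, fell from 569, 629 and 756 to 336, 302 and 310 normalized counts in females and stood at 533, 638 and 718 in wild-type and 750, 574 and 576 in knockout males. Msmo1, a sterol demethylation enzyme, had an interaction of −1.15 ± 0.23 (SE). The calls numbered 4 without male wild-type 3, 5 without male wild-type 1, 7 without male knockout 3, 8 without male knockout 2 or female wild-type 3, and 4 without female wild-type 3 and male knockout 2 together.

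Lists of nuclear functions differed in the sign of their calls. Of 98 chromatin modifiers and remodellers 43 were called, 42 positive, with medians of 0.31 in females and −0.12 in males and a median interaction of 0.44. Tet3, which oxidizes methylcytosine, was opposite with separated groups in both sexes: it stood at 3257, 2543 and 2569 normalized counts in wild-type and 4858, 3989 and 4230 in knockout females, and at 4187, 3555 and 4138 in wild-type and 3204, 2919 and 3137 in knockout males. Chd6, a chromatin remodeller, was opposite as well, with log2 fold changes of 0.89 and −0.34, while Baz2b (0.98 and −0.22) and the bromodomain protein Brd9 (1.29 and −0.15) were female only. The calls numbered 24 without female knockout 1 or female wild-type 3, 25 without male wild-type 1, 27 without female knockout 3, 28 without female wild-type 2 and 10 without female wild-type 3 and male knockout 2 together.

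Of 52 splicing factors 18 were called (34.6%, against 26.8% of all genes tested), 14 positive and 4 negative. Their medians were 0.08 in females and −0.09 in males. Srrm2, a scaffold of nuclear speckles, rose from 16512, 13412 and 12134 to 34667, 24838 and 35872 normalized counts in females and stood at 24138, 16470 and 19268 in wild-type and 16743, 15295 and 16348 in knockout males. Srsf5 and the splicing kinase Clk3 had interactions of 1.51 ± 0.26 and 0.91 ± 0.18 (SE), and the nuclear RNA-binding protein Hnrnpc one of −0.79 ± 0.12. Of 364 zinc-finger genes named Zfp, 71 were called (19.5%, below the 26.8% of all genes tested), 65 positive. Of these genes Zfp318 had log2 fold changes of 1.04 and −0.08. The Zfp calls numbered 36 without female knockout 1, 37 without female wild-type 3, 38 without male wild-type 3, 39 without male wild-type 1, 42 without female knockout 3, 43 without male knockout 3 and 45 without male knockout 2. Without female wild-type 3 and male knockout 2 together there were 20 Zfp and 7 splicing calls. All 8 calls among 62 replication-dependent histone genes (12.9%, also below that share) were negative, H2ac18 among them at −0.70 ± 0.15. The histone calls numbered 3 without male wild-type 1 or 3, 5 without female knockout 3 or male knockout 2, 13 without female knockout 2 and 14 without male wild-type 2.

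Calls among RNA classes other than the coding genes were mostly positive, as in the positive lists above. Transcripts annotated as TEC (an annotation class of gene models that await experimental support) amounted to 22.9, 18.9 and 9.22 per 10000 coding counts in wild-type and 44.1, 38.9 and 44.3 in knockout females, and to 38.1, 18.8 and 27.6 in wild-type and 23.6, 25.7 and 23.6 in knockout males. Of 1185 TEC genes tested 302 had a called interaction, all positive. Of 1793 long noncoding RNAs 352 were called, 331 positive and 21 negative, and of 559 pseudogenes 149, 142 positive and 7 negative. Of 13685 autosomal coding genes 3661 were called (26.8%). The summed pseudogene counts overlapped in females, at 43.3, 64 and 54.3 per 10000 coding counts in wild type and 71.2, 56.7 and 52.6 in knockouts. The part of these RNA classes in the result for coding genes was not tested.

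**Figure D3:**
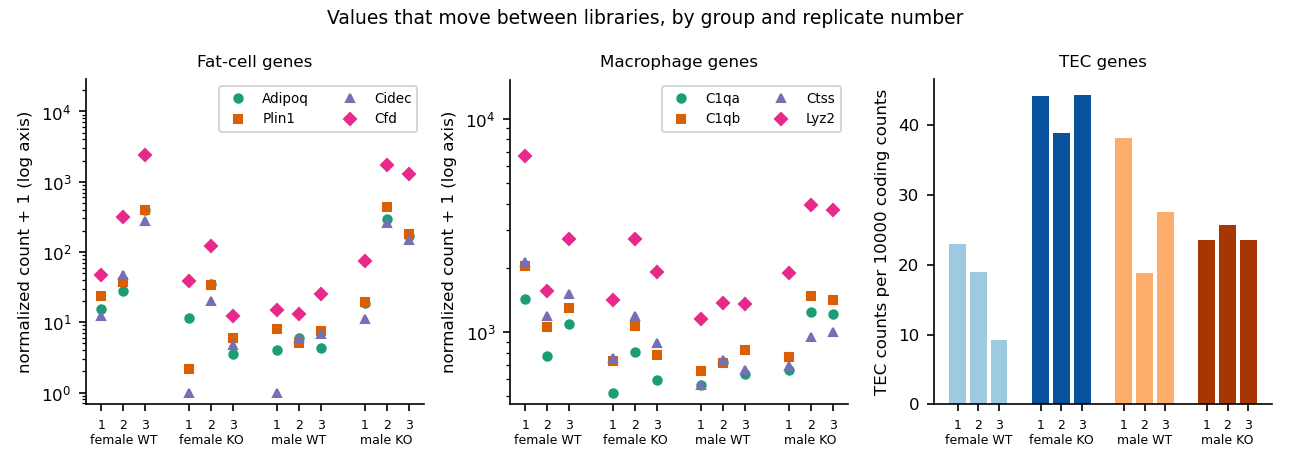
Left and middle, normalized counts plus 1 on a log axis for 4 fat-cell and 4 macrophage genes, and right, counts of TEC genes per 10000 coding counts, for each of the 12 libraries by group and replicate number. Fat-cell genes are high in female wild-type 3 and male knockout 2 and 3, macrophage genes in female wild-type 1 and male knockout 2 and 3, and TEC counts are highest in the 3 knockout females (38.9 to 44.3), with male wild-type 1 close to them at 38.1.

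Ion transport sets the composition of saliva in the ducts and acini. Of 32 genes of acid-base, sodium and potassium transport 9 were called (28.1%, close to the 26.8% of all genes tested), all positive, of which Slc4a11 was opposite, 5 were female-only genes that were higher in knockout females and 3 were male-only genes that were lower in knockout males. Slc4a3, an anion exchanger, rose from 144, 89.5 and 49.7 to 397, 285 and 353 normalized counts in females and stood at 139, 87.9 and 156 in wild-type and 90.5, 84.4 and 89 in knockout males. The potassium channel Kcnq1 had log2 fold changes of 0.81 and −0.27. It missed the threshold without female wild-type 3 and male knockout 2 (0.84) and under the authors' normalization (0.91).

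The male-only members were named after their values were seen. Slc9a4, a sodium-proton exchanger, stood at 159, 166 and 202 normalized counts in wild-type and 147, 191 and 115 in knockout females, and at 295, 371 and 332 in wild-type and 158, 143 and 158 in knockout males. Atp6v1b1, a proton pump subunit of acid-secreting duct cells, and the calcium-activated potassium channel Kcnma1 had male log2 fold changes of −0.99 and −0.75, with separated groups. The acid-base calls numbered 4 without female knockout 1 or male knockout 2, 5 without male knockout 3, female wild-type 3, male wild-type 1 or male wild-type 3, 6 without female knockout 3 or female wild-type 2, and 2 without female wild-type 3 and male knockout 2 together.

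Of 27 anoctamins, aquaporins and other chloride channels 13 were called (48.1%, against 26.8% of all genes tested), 8 positive and 5 negative. Clcn2, a chloride channel of the basolateral membrane, rose from 545, 424 and 374 to 995, 895 and 887 normalized counts in females and stood at 2884, 2717 and 2598 in wild-type and 2484, 1888 and 2399 in knockout males, with log2 fold changes of 1.04 and −0.28. Ano8, which tethers the ER to the plasma membrane, had an interaction of 1.33 ± 0.20 (SE). Clcn4 was negative, with an interaction between −0.83 and −0.63 over the settings run. The calls numbered 5 without male wild-type 1, 7 without female knockout 1, female wild-type 3, male knockout 2 or male knockout 3, and 8 without male wild-type 3.

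Receptors and calcium signalling, which start fluid secretion, were mixed. Of 39 genes 15 were called (38.5%, against 26.8% of all genes tested), 9 positive and 6 negative. Their medians were −0.12 in females and −0.16 in males. Itpr2, the ER calcium release channel, was opposite with separated groups: it stood at 4778, 4303 and 3749 normalized counts in wild-type and 7263, 6629 and 6734 in knockout females, and at 8853, 8853 and 9404 in wild-type and 8230, 7027 and 7314 in knockout males. The adrenergic receptor Adra1a was female only, rising from 1375, 1334 and 1073 to 2267, 2545 and 1980 in females with a male log2 fold change of −0.22. The muscarinic receptor Chrm3, the main trigger of salivation and named after its values were seen, was not called (interaction 0.47, adjusted p = 0.087, edgeR). Of the negative calls, Prkar2a had an interaction between −1.07 and −0.85 over the settings run, and Prkar1a one between −0.83 and −0.63. The calls of this list numbered 10 without female knockout 3.

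The opposite class had a median absolute effect of 0.66 for females and 0.44 for males on the log2 scale. The female effect was the larger in 225 of its 312 genes, a share close to that of all genes tested (9871 of 13685). Of the 312 opposite genes 229 had an adjusted p under 0.05 in females and 1 in males. The male side of the pattern thus rests on unadjusted p-values for nearly all of them. Only 37 (11.9%) stayed in the class with each of the 12 libraries left out in turn, 27 of them higher in knockout females. The female-only class kept 1146 of its genes (37.3%) by the same measure and the male-only class 12 (5.58%). Because classes are cut by thresholds, a gene that left its class was not thereby lost for the interaction.

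Genes of the stable opposite set were named after their values were seen. Zmynd8, a reader of acetylated histones, stood at 1527, 1528 and 1441 normalized counts in wild-type and 2653, 2235 and 2460 in knockout females, and at 2291, 2248 and 2334 in wild-type and 2057, 1654 and 1734 in knockout males. The transcription factor Bcl11a had log2 fold changes of 0.48 and −0.51, and the nuclear transport protein Ranbp17 of 1.41 and −0.74. Ano4, Nos1ap, Atosa, Ulk3, Tet3 and Sec31b were also in this set. St6galnac2, a sialyltransferase of mucin-type glycans, is represented by 2 overlapping genes of that symbol that could split reads, and both were opposite.

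The 8 genes with the largest opposite effects were highest in female wild-type 3 and male knockout 2, and several of them are genes of fat cells. Cfd, the adipokine adipsin, stood at 46.1, 311 and 2413 normalized counts in wild-type and 38.1, 121 and 11.2 in knockout females, and at 13.8, 12.3 and 23.9 in wild-type and 74.6, 1730 and 1289 in knockout males. Female wild-type 3 and male knockouts 2 and 3 were high, and the female groups overlapped. Plin1, the lipid droplet coat protein of fat cells, stood at 22.5, 36.3 and 393 in wild-type and 1.15, 33 and 4.96 in knockout females, and at 6.92, 4.11 and 6.6 in wild-type and 18.7, 432 and 177 in knockout males. Ucp1, the uncoupling protein of brown fat, reached 455 in female wild-type 3, 212 in male knockout 2 and 31.7 in male knockout 1, with at most 2.91 in the other 9 libraries. It thus differed from the other 2 genes in male knockout 3, where it was at 0.

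The other genes with the largest opposite effects had the same high libraries. Mup22 read 341 normalized counts in female wild-type 3, 173 in male knockout 2 and 42.7 in male knockout 3. Cyp2e1, a cytochrome P450 of liver and fat, read 271, 279 and 233 in these libraries. Pck1, of glyceroneogenesis, read 787, 758 and 327, and Cidec, of lipid droplet fusion, read 279, 255 and 145. Acvr1c, an activin receptor of fat cells, read 205, 191 and 86.2, and Ankef1 read 45.2, 83.4 and 39. In the remaining 9 libraries none of these 6 genes exceeded 67.4. Their fitted log2 values, from −8.21 to −13.66 for the interaction, depend on a group near 0 and on the prior count, and are no estimate of size.

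Of 18 lipid and fat-cell genes tested 15 were called, 14 negative and 1 positive, and 8 of them were opposite, with medians of −1.60 in females and 2.14 in males. The summed level of the list was 20621, 23250 and 36777 normalized counts in wild-type and 17764, 20827 and 16854 in knockout females, and 15660, 15813 and 15518 in wild-type and 20617, 36218 and 23857 in knockout males. Its defining markers Adipoq, Plin1 and Cidec were at most 6.92 in every wild-type male. Without female wild-type 3 and male knockout 2 together, 7 genes were called and the median interaction was −1.95 in place of −4.31. Leaving out female wild-type 3 alone gave 10 calls and a median of −3.05, and leaving out male wild-type 1 alone gave 9. Over all genes tested, leaving out both libraries gave 1651 calls, 542 positive and 1109 negative, with 90 opposite, 1514 female-only, 31 male-only and 16 same-direction genes. Of the 312 opposite genes 77 (24.7%) stayed opposite. The part of fat tissue in these numbers was not tested beyond that comparison.

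The exception among the fat genes was Lipe, hormone-sensitive lipase, which also acts in other tissues. It rose from 643, 481 and 747 to 1794, 1385 and 1882 normalized counts in females and stood at 937, 569 and 816 in wild-type and 735, 842 and 626 in knockout males, a female-only interaction of 1.51 ± 0.28 (SE, edgeR). Fasn, fatty acid synthase, stood at 5270, 7505 and 9037 in wild-type and 4859, 4363 and 3524 in knockout females and 5466, 4851 and 4347 in wild-type and 6494, 9128 and 6144 in knockout males. Its log2 fold changes were −0.78 and 0.57, and its groups did not overlap in either sex.

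The macrophage list was highest in female wild-type 1 and male knockouts 2 and 3. Of 17 tested 11 were called, 10 negative and 1 positive, with medians of −0.76 in females and 0.73 in males, and the summed level of the list was 25373, 9279 and 12627 normalized counts in wild-type and 7960, 12192 and 9560 in knockout females, and 8940, 10499 and 10760 in wild-type and 11384, 19002 and 18372 in knockout males. C1qa, of the complement component C1q, stood at 1420, 768 and 1085 in wild-type and 520, 804 and 595 in knockout females, and at 567, 721 and 637 in wild-type and 660, 1241 and 1220 in knockout males. Female wild-type 1 and male knockouts 2 and 3 were the highest, and both sexes overlapped. Lyz2, lysozyme M, read 6700 in female wild-type 1, and 3920 and 3711 in those male knockouts. The count was 4 without male knockout 2, male knockout 3 or male wild-type 1, 6 without female knockout 1, 7 without male wild-type 3, and 3 without female wild-type 3 and male knockout 2 together, where C1qa missed the threshold (−1.39).

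The positive macrophage-list gene, Mertk, a receptor for dying cells that epithelia also use, had another pattern. It rose from 356, 353 and 332 to 677, 615 and 752 normalized counts in females and stood at 1144, 1128 and 1281 in wild-type and 1178, 1059 and 1160 in knockout males, with an interaction of 1.04 ± 0.14 (SE, edgeR). Among the blood genes Hbb-bs, a beta globin, was opposite at low counts, with 22.4, 71.2 and 57.2 normalized counts in knockout males and at most 24.1 elsewhere, and missed the threshold without female wild-type 3 and male knockout 2 (−2.88). Of 62 MHC and interferon-stimulated genes 7 were called (11.3%, below the 26.8% of all genes tested), 6 negative, with a median interaction of −0.46. They were 16 without female wild-type 1, 14 without male knockout 1 and 4 without female wild-type 3, male knockout 2, male wild-type 1 or male wild-type 3. Of 22 immediate early genes 5 were called (22.7%, also below that share), 4 negative, with medians of 0.00 in females and 0.52 in males. Junb stood at 527, 1054 and 773 in knockout and 562, 572 and 515 in wild-type males. It missed the threshold without male wild-type 1 (−0.99) or 3 (−0.93). Myc, the positive call, missed it in 17 settings. Egr2 missed it in 13, among them the replicate block (−2.18). The early-gene calls numbered 1 without male wild-type 1, 2 without male wild-type 3 or female wild-type 1, 3 without female knockout 3, female wild-type 3, male knockout 2 or male wild-type 2, and 8 without female wild-type 2.

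The male-only class was smaller, and its male effects seldom passed adjustment. Of 215 male-only genes, 8 had an adjusted p under 0.05 in males, and the median size of the effect was 1.02 for males and 0.33 for females on the log2 scale. Tmprss13, a membrane serine protease, stood at 438, 437 and 463 normalized counts in wild-type and 547, 591 and 506 in knockout females, and at 599, 584 and 784 in wild-type and 470, 380 and 329 in knockout males. Its groups were separated in both sexes. The unadjusted p of edgeR was 0.064 in females and 0.00022 in males. Neither passed adjustment (adjusted p = 0.13 and 0.072, edgeR). Its interaction was 1.04 ± 0.21 (SE). Pik3c2b, a phosphoinositide kinase, stood at 4608, 4569 and 4361 in wild-type and 3862, 2954 and 3192 in knockout males, and at 2896, 2805 and 2883 in wild-type and 3480, 3108 and 3272 in knockout females. Pde1c, a calmodulin-dependent phosphodiesterase, stood at 2086, 1838 and 2075 in wild-type and 1557, 1175 and 1124 in knockout males, and at 1296, 1109 and 924 in wild-type and 1336, 1478 and 1227 in knockout females. Hdac4, a class IIa histone deacetylase, stood at 1327, 1083 and 1041 in wild-type and 904, 769 and 856 in knockout males, and at 1069, 1114 and 1097 in wild-type and 1297, 1201 and 1311 in knockout females. The female groups of Pik3c2b and Hdac4 were also separated, with the knockouts higher, and those of Pde1c overlapped. These 3 genes missed the threshold without female wild-type 3 and male knockout 2 together (0.51, 0.69 and 0.55), and Hdac4 also under the authors' normalization (0.59).

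Male-only genes that were higher in knockout males included genes of stroma and immune cells. Dpt, the dermatopontin of fibroblasts, stood at 135, 154 and 125 normalized counts in wild-type and 320, 729 and 433 in knockout males, and at 595, 324 and 407 in wild-type and 462, 529 and 385 in knockout females. Wild-type males were the low group, and the female groups overlapped, with an interaction of −1.78 ± 0.39 (SE). Ccl6, a chemokine of myeloid cells, stood at 114, 148 and 127 in wild-type and 195, 709 and 580 in knockout males. In females it stood at 545, 263 and 288 in wild type and 176, 289 and 198 in knockouts. Female wild-type 1 and male knockouts 2 and 3 were thus the highest, as in the macrophage list. The interaction of Ccl6 was −2.66 ± 0.57. Of 13 fibroblast markers 3 were called (23.1%, against 26.8% of all genes tested), all negative. Thy1 missed the threshold without male knockout 2 (−1.22) or male wild-type 3 (−1.54). It also did so without female wild-type 3 and male knockout 2 together (−1.33), and under the authors' normalization (−1.30). Mfap5 missed the threshold in 11 settings, among them the authors' normalization (−1.46) and the replicate block (−1.71). The count was 1 without male knockout 2 or male wild-type 3, 2 without female knockout 1 or 3, female wild-type 1, male knockout 3 or male wild-type 1 or 2, 6 without female wild-type 2, 7 without female knockout 2 and 9 without male knockout 1.

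The single gene of the strict male-only form was Rhob, an early-response small GTPase, named after its values were seen. It rose from 1556, 1811 and 1450 to 2451, 2944 and 2799 normalized counts in males (log2 fold change 0.77, adjusted p = 0.047, edgeR) and stood at 2202, 2442 and 2779 in wild-type and 2358, 2825 and 1946 in knockout females. Male-only genes that kept their class in every left-out fit included, besides Rhob and Dpt, the lysozyme gene Lyz1 and the complement gene C3. Hspb7, a small heat shock protein of muscle, was lower in knockout males, at 214, 145 and 108 against 388, 337 and 402 in wild type. The whole class held 63 genes without male knockout 2 and 549 without male knockout 1. It held 123 without female knockout 1, 129 without female knockout 3, 74 without male knockout 3, 65 without male wild-type 1 and 67 without male wild-type 3.

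In the same-direction class 46 of 52 genes were lower in both knockouts, and 13 (25%) kept the class in every left-out fit. The female effect was the larger in 50 of the 52, against 9871 of the 13685 genes tested. The class held 81 genes without female wild-type 1, 24 without male knockout 2 or male wild-type 1, 25 without male wild-type 3, 27 without male knockout 3 and 32 without male wild-type 2. Of 19 clock and PAR bZIP genes, 16 had an adjusted p under 0.05 in females and 12 in males, against 38.7% and 0.3% of all genes tested. The interaction was called in 4 of them (21.1%, below the 26.8% of all genes tested), 3 negative and 1 positive. Bmal1, the core activator, stood at 43.8, 59.7 and 46.7 normalized counts in wild-type and 619, 582 and 446 in knockout females, and at 64.6, 74.7 and 72.6 in wild-type and 654, 480 and 417 in knockout males. Its interaction was 0.58 (adjusted p = 0.14, edgeR), and Bmal1 was named after its values were seen, as a gene without a call.

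Those clock genes that were called moved further in one sex. Bhlhe41, a repressor of the clock, fell in both sexes, by 1.85 in females and 0.85 in males. Bhlhe40 fell in females, from 3934, 3850 and 4037 to 1770, 1610 and 1395 normalized counts, and stood at 5756, 5371 and 5363 in wild-type and 5817, 3924 and 5245 in knockout males. Per3, of the period family, was the positive one and fell further in males, from 2992, 1821 and 2514 to 692, 470 and 612, against 2538, 2373 and 2074 to 1222, 992 and 1509 in females. The interaction was 1.14 ± 0.28 (SE, adjusted p = 0.013, edgeR) and missed the threshold without female wild-type 3 and male knockout 2 (0.87).

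Lists of the gland's own cells and products gave few calls. None of 18 acinar genes, 27 granular duct products and 24 ductal keratins and epithelial factors was called by edgeR, at median interactions of −0.21, 0.04 and −0.08. At an unadjusted p under 0.05 there were 5, 0 and 5, and DESeq2 called 2, 0 and 1. Without female wild-type 1 the calls numbered 4, 1 and 3, without male wild-type 2 they were 3, 0 and 2, and without a filter on low counts 4 acinar genes were called. None of 14 endothelial, 12 nerve, 7 tuft-cell, 5 lymphocyte and 4 skeletal muscle markers was called by edgeR. At an unadjusted p under 0.05 there were 2, 1, 4, 1 and 1 of them, DESeq2 called 1 tuft-cell and 1 skeletal muscle marker, and no setting called more than 2 of a list. Smtn was the 1 called of 12 myoepithelial and smooth muscle genes, with 3 calls without female wild-type 1 and 0 without female wild-type 3 and male knockout 2 together. Of 10 major urinary proteins and lipocalins 3 were called (30%, near the 26.8% of all genes tested). The count was 6 without male wild-type 2, and 1 with the filter at 10 counts or without female wild-type 3 and male knockout 2 together. The 3 genes were Mup5, Mup22 and Mup4, of which Mup4 read 104 normalized counts in 1 knockout female and 194 in 1 wild-type male, and between 0 and 20 in the other 10 libraries. The Mup4 call was lost in 9 of the 12 fits with a library left out and with the replicate block (8.88), and its interaction was 2.68 without female knockout 3. Of 50 mucins and enzymes of mucin-type O-glycosylation 6 were called (12%, below the 26.8% of all genes tested), 4 positive and 2 negative. The summed level of that list was 314324 normalized counts in female knockout 3 and 474097 in male wild-type 3, and between 29715 and 52704 in the other 10 libraries. The negative ones were the initiating transferase Galnt3, which fell from 10059, 10214 and 12842 to 4231, 4800 and 5290 in females, and C1galt1, which extends the first sugar. Galnt3 missed the threshold under the authors' normalization (−0.63).

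The share of called members was at or below that of all genes tested (26.8%) in the cell cycle, collagen and steroid lists. Of 32 cell cycle genes only Pcna, the replication clamp, was called (−0.49), and it missed the threshold in 8 of the 12 fits with a library left out, with the replicate block (−0.50), without a filter (−0.50), with upper-quartile factors (−0.41) and with library sizes from autosomal coding genes (−0.42). Of 58 collagen and basement membrane genes 8 were called, 6 positive, among them Lama5, a laminin of epithelial basement membranes, with log2 fold changes of 0.87 and −0.24. The collagen list gave 4 calls without female knockout 1, 5 without male wild-type 1, 16 without female knockout 2 and 17 without male knockout 1. Of 24 genes of steroid hormone action 6 were called, 5 negative, among them the steroid receptor chaperone Fkbp4, which fell from 5578, 6799 and 7239 to 3957, 3941 and 3786 normalized counts in females and stood at 4098, 4598 and 4117 in wild-type and 4572, 4215 and 4445 in knockout males.

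**Figure D4:**
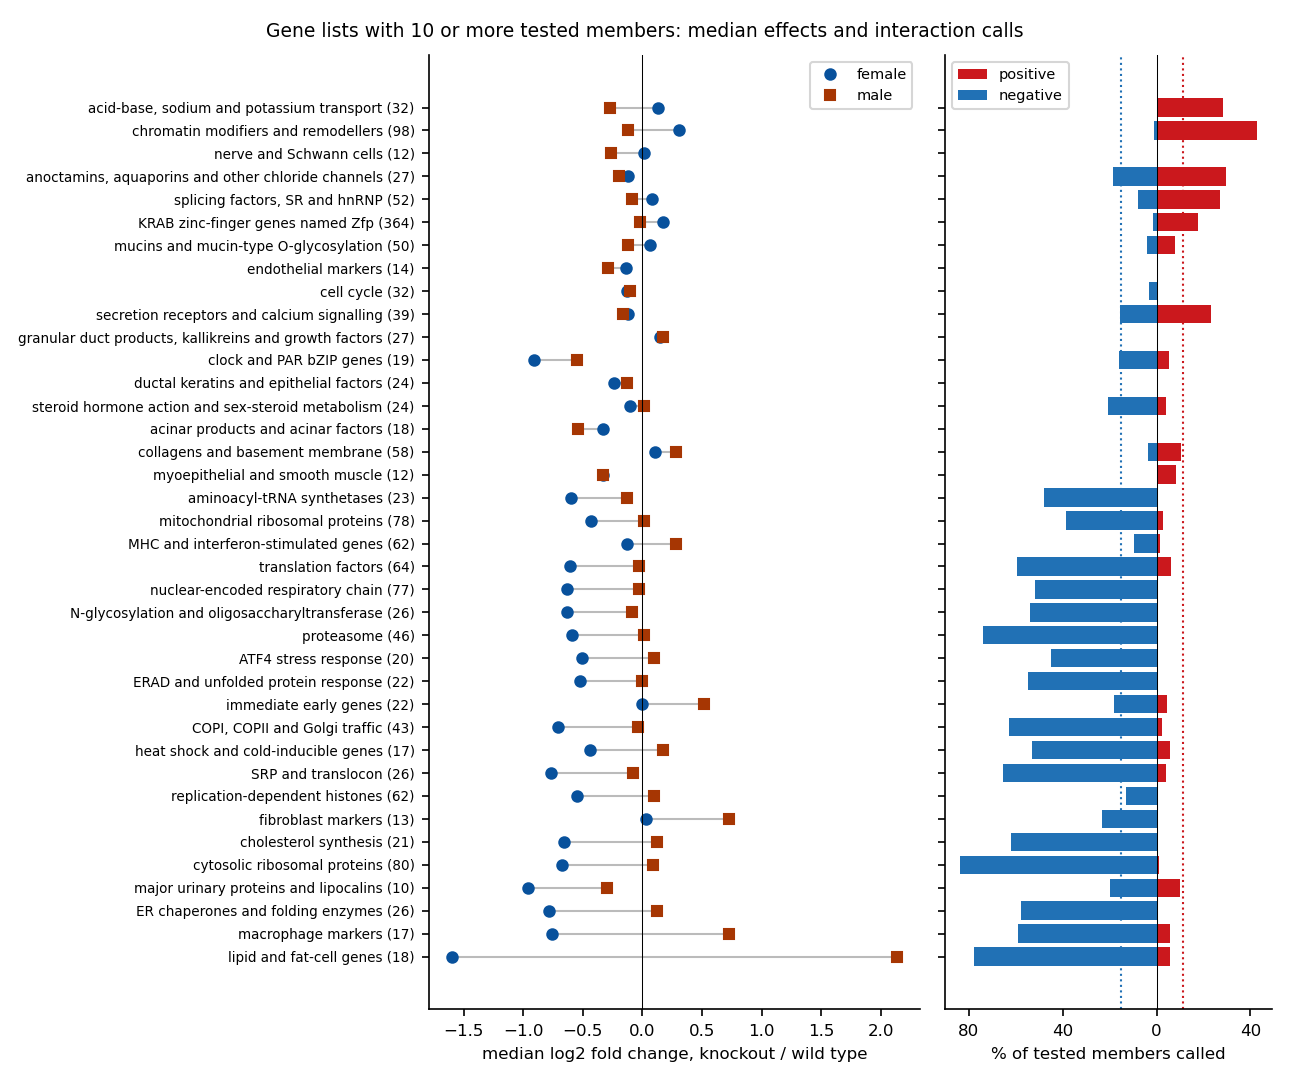
Left, median log2 fold change of knockout over wild type in females (circles) and males (squares) for lists with 10 or more tested members (number in brackets), and right, the percent of members with a positive (right) or negative (left) called interaction. Dotted lines mark 11.4% and 15.3% of all genes tested, and the lists of protein synthesis and secretion lie far left in females and near 0 in males.

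Called genes also differed in structure and level. Genes with a positive interaction had a median transcript length of 4350 bases, 14 exons and a genomic span of 35.2 kb. Those with a negative one had 2871 bases, 7 exons and 20.3 kb, against 3470 bases, 9 exons and 26.4 kb for all genes tested. Among opposite genes the contrast was wider, with 5064 bases and 16 exons for those higher in knockout females and 2626 bases and 6 exons for those lower there. In the quintile of genes with the shortest transcripts 5.81% were called positive and 22.5% negative, and in the quintile with the longest 17.9% and 9.24%. By level, negative calls ran from 3.25% in the lowest quintile to 32.2% in the highest, while positive calls lay between 7.12% and 14.1%. Calls were spread over the genome, from 22.4% of the genes tested on chromosome 13 to 30.6% on chromosome 18.

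**Figure D5:**
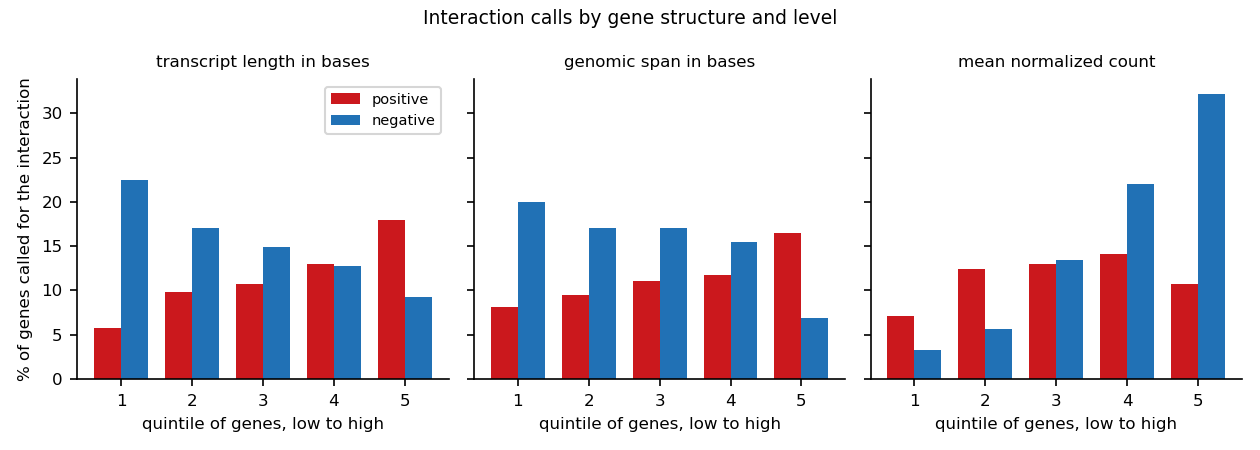
Percent of tested genes with a positive or negative called interaction in quintiles of transcript length, genomic span and mean normalized count, each quintile holding 2737 genes. Negative calls decline from 22.5% to 9.24% with transcript length while positive calls climb from 5.81% to 17.9%, and negative calls climb with level from 3.25% to 32.2%.

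The promoter sequences of the classes differed in composition. The windows were searched on both strands for the ETS site CCGGAAG, the CCAAT box CCAAT and the TATA box TATAAA. They were also searched for the NRF1 site, the YY1 site, the CRE TGACGTCA, the E-box CACGTG, the D-box TTATGTAA, the PPAR repeat, the hormone half-site AGAACA and a pyrimidine run at the start, which occurred in 1.65%, 1.21%, 3.03%, 9.49%, 0.658%, 0.0292%, 13.3% and 4.11% of all these promoters. The ETS letters occurred in 14.4% of the promoters of all genes tested, in 21.5% of female-only genes lower in knockout females and in 14.3% of those higher there. The share was 10.3% in opposite genes higher in knockout females and 6.78% in those lower there. They occurred in 31.2% of ribosomal protein and 32.6% of proteasome promoters, and in 3.68% of male-only genes higher and 3.8% of those lower in knockout males. Male-only genes higher in knockout males held the TATA letters in 16.2%, against 8.72% of all. Median CpG counts were 19 in female-only genes lower in knockout females, 7.0 in male-only genes higher in knockout males and 2.5 in the fat-cell list. A match of letters is a description and no sign of binding.

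The windows of Ndufb9 (plus strand of chr15:58805344-58805643) and Adipoq, the fat-cell hormone adiponectin (plus strand of chr16:22965036-22965335), show windows of differing composition. Capitals mark the 2 ETS matches of Ndufb9, written as their reverse complement, and the 3 CCAAT matches of Adipoq on either strand. The Ndufb9 window holds 22 CpG dinucleotides and the Adipoq window 0.
Ndufb9: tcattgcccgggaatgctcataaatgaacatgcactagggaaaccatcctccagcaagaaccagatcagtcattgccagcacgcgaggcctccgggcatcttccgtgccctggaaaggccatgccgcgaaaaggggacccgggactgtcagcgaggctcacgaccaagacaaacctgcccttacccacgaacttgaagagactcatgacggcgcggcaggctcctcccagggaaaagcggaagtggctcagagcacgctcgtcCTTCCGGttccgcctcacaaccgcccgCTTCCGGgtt
Adipoq: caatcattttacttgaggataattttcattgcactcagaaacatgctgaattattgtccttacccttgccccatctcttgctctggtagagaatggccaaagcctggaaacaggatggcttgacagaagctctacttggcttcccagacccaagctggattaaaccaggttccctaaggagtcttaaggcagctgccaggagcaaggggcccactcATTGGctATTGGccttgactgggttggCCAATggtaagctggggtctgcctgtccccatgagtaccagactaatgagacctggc
Ndufb9 was among the female-only genes with the smallest p. Adipoq stood at 14.6, 27.2 and 393 normalized counts in wild-type and 10.4, 34 and 2.48 in knockout females, and at 3.07, 4.93 and 3.3 in wild-type and 17.7, 294 and 167 in knockout males, the library pattern of the other fat-cell genes.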

How the data were processed

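Bulk RNA-sequencing of 12 SMGs was analysed. According to the methods, the authors made stranded libraries of rRNA-depleted total RNA, whereas the labels name polyadenylated RNA. The authors quantified transcripts with Salmon 1.10.1 on GRCm39 (Gencode M35) and deposited estimated counts for each gene, which were rounded to whole numbers here. A separate table deposited by the authors holds a normalized signal, whose ratio to the counts served only as offsets in 1 alternative. Group labels came from the sample records. Symbols, positions and gene classes came from Gencode M39, which held 55563 of 56065 identifiers. Whether same-numbered mice are related is not given.

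Tests used R 4.3.3, limma 3.58.1 and edgeR 4.0.16. After filterByExpr, 17893 genes were scaled by TMM and fitted with 1 mean for each group over all 12 libraries. The TMM factors differed by group. They ran from 0.625 to 0.759 in wild-type and 0.902 to 1.03 in knockout females. In males they ran from 1.04 to 1.45 in wild types and 1.11 to 1.25 in knockouts. The interaction was tested by quasi-likelihood F tests with Benjamini-Hochberg adjustment over all 17893 genes at 0.05. The SE of a log2 fold change is its size over the root of its F value. A normalized count is the count scaled by TMM to a library of average effective size. A single small RNA, Rn7s1, took 11.8% to 39.1% of the counts of a library and the 20 most abundant genes 53.2% to 80%. The share of those 20 was 77.2% to 80% in wild-type and 72.7% to 76% in knockout females. In males it was 53.2% to 61.4% in wild types and 57.8% to 62.9% in knockouts. The part of these group differences in the calls was not tested beyond the alternative scalings. Depth sets the precision: a count of 0 allows up to 3 counts, and such limits cover counting error only.

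Named genes were Mup5, Slc4a11 and Ano4, the 8 genes with the smallest interaction p in each direction (absolute interaction above 1, at least 10 counts in every library of 1 group), the 8 opposite genes whose smaller effect was largest, the 6 male-only genes with the smallest p, and up to 4 called members of each list. Where no member was called, these were the 2 with the highest mean count, and other genes are said to be named after their values were seen. The genes and the 42 lists were chosen with earlier results of these data known, so their counts are descriptions, and no set test was made. Alternatives were RLE and upper-quartile factors, library sizes from autosomal coding genes or without the 20 most abundant genes, the authors' offsets, a filter at 10 counts in each library or none, DESeq2 1.42.0, a replicate block and each library left out in turn. Leaving out female wild-type 3 and male knockout 2 together was added after seeing the data. The fit was tested on simulated data in which 200 of 17545 genes were changed 3-fold in knockout females, as many raised as lowered. Of these 81.5% were recovered, all with the right sign, and 4.12% of the calls were false. The simulation kept all other genes equal between groups and held no deviant library. In the data 26.8% of the coding genes tested had a called interaction, so the 4.12% gives no rate of false calls for them. Promoter windows ran from 250 bases before to 50 after the start of the canonical transcript and were read from the GRCm39 primary assembly. Plots came from matplotlib 3.10.9 and tables from pandas 2.3.3 and numpy 2.4.6, all under Python 3.11.15. Some members of the lists are not reported here.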

Additional observations from a re-analysis of the deposited data

Results flagged for a closer look

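Each gene below had an effect of the knockout that differed between the sexes by the interaction test of edgeR, given as the female minus the male log2 fold change. They were named by rule among the 3661 called, and members named for the lists are left out. The genes were not independent of each other, since all share the same 12 libraries.

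Of the 3 genes followed throughout, the interaction was −3.19 for Mup5, 1.56 for Slc4a11 and 2.61 for Ano4. Of the positive genes with the smallest p, it was 1.16 for Atosa, 2.08 for Nos1ap, 2.42 for Kifc2, 3.04 for Tmem82, 2.41 for Ybx2, 1.47 for Ciz1 and 1.45 for Ulk3. Of the negative ones, it was −1.29 for Coq10b, −1.18 for Tlcd4, −1.47 for Usp2, −1.13 for Odc1, −1.15 for Ndufb9, −1.06 for Gm10053 and −1.04 for the short gene model named Ptp4a1.

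Among male-only genes the interaction was 1.04 for Tmprss13, −2.66 for Ccl6, −1.78 for Dpt, 0.66 for Hdac4, 0.92 for Pde1c and 0.64 for Pik3c2b. Among the opposite genes with the largest effects, the fitted value was −13.51 for Ucp1, −13.66 for Mup22, −8.98 for Cyp2e1, −9.90 for Cfd, −9.61 for Acvr1c, −8.97 for Cidec, −8.21 for Pck1 and −8.34 for Ankef1. All 8 genes were highest in female wild-type 3 and male knockout 2. Without female wild-type 3 and male knockout 2 together, Mup22, Acvr1c, Cidec and Pck1 missed the threshold, at −8.93, −5.57, −6.29 and −4.26. Without female wild-type 3 alone Ucp1, Pck1 and Ankef1 missed it, at −5.92, −5.32 and −5.73, and without male wild-type 1 Ucp1 and Pck1 did, at −15.87 and −7.66.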

How the results depend on the processing

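No gene named by rule and called changed direction in any setting run. The share of positive calls was 42.8% and crossed to 53.7% with upper-quartile factors and 51.8% with library sizes from autosomal coding genes. Median interactions did reach or cross 0 in at least 1 setting for the acinar, granular duct, ductal, mucin, cell cycle, clock, endothelial, nerve, secretion receptor, skeletal muscle and tuft-cell lists, so no direction is read from them. With 1 library left out, the calls for the interaction lay between 1976 and 4417, the positive ones between 883 and 1714 and the negative ones between 1050 and 3020. The opposite class lay between 132 and 723, the female-only class between 1749 and 3790, the male-only class between 63 and 549 and the same-direction class between 24 and 81. Without female wild-type 3 and male knockout 2 together, a setting chosen after seeing the data, there were 1651 calls, 542 positive and 1109 negative, with 90 opposite, 1514 female-only, 31 male-only and 16 same-direction genes. DESeq2 gave 348 male-only genes. Under the other scalings and filters each of these counts stayed within 1.5 times its main value, and the median interaction of all genes stayed between −0.16 and −0.01. The cause of these shifts was not tested, except that fewer samples were fitted where libraries were left out.

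Median interactions of lists that moved by more than the spread between replicates were as follows. Under the authors' normalization they were −0.93 for cytosolic ribosomal proteins, −0.64 for mitochondrial ribosomal proteins and −0.78 for the respiratory chain. With at least 10 counts in every library, which tests fewer genes, they were −1.55 for fat-cell genes, 0.33 for skeletal muscle and −1.02 for red blood cells. Without female wild-type 3 and male knockout 2 they were −1.95 for fat-cell genes and −0.67 for red blood cells. With single libraries left out the medians ran from −0.94 to −0.68 for cytosolic ribosomal proteins, −0.70 to −0.51 for translation factors, −0.57 to −0.36 for aminoacyl-tRNA synthetases, −0.74 to −0.52 for N-glycosylation, −1.15 to −0.71 for ER chaperones, −0.83 to −0.60 for Golgi traffic, −0.86 to −0.61 for heat shock genes, −0.64 to −0.44 for mitochondrial ribosomal proteins and −0.78 to −0.51 for the respiratory chain. They ran from 0.06 to 0.24 for splicing factors, −0.53 to 0.25 for cell cycle genes, −0.11 to 0.06 for secretion receptors, −5.00 to −3.05 for fat-cell genes, −1.75 to −1.04 for macrophage, −1.22 to −0.16 for lymphocyte, −2.74 to −0.81 for blood and −0.30 to 0.50 for nerve markers.

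List counts also shifted by over 1.5 times outside the left-out libraries. Against 15 calls among ER chaperones there were 23 with DESeq2 or without the 20 most abundant genes, against 71 among Zfp genes 44 under the authors' normalization, and against 15 among fat-cell genes 6 with the filter at 10 counts. Against 7 among MHC genes there were 12 with DESeq2 and 11 under the authors' normalization or with that filter. Against 8 among collagens there were 14 with DESeq2 and 13 without a filter, against 8 among histones 14 under the authors' normalization, and against 5 among immediate early genes 3 to 10. Against 3 among fibroblast markers there were 5 to 7 in 6 settings, 7 of them with DESeq2, and against 1 among cell cycle genes 0 to 3. Major urinary proteins went from 3 to 1 with the filter at 10 counts, red blood cell genes from 1 to between 0 and 2, and smooth muscle genes from 1 to 2 under the authors' normalization. Lists with no call reached 4 for acinar genes and 1 for granular duct, ductal, tuft-cell, lymphocyte and skeletal muscle genes.

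The labels number the mice of each group alike without saying that a number pairs them, and the deviations of same-numbered libraries correlated between −0.20 and 0.24. With a replicate block 3430 genes were called, 3280 of them shared with the fit without it.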
